A study of Mus musculus with 9 samples.

Results

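A set of 9 genes that mark monocytes and macrophages was followed through KMT2A-MLLT1 transformation of mouse bone marrow cells: Csf1r, Cd14, Fcgr1, Adgre1, Mrc1, Ly6c2, Lyz2, Cd68 and Klf4. They were taken as a list of symbols and matched to the Ensembl identifiers of the deposited raw count table, which holds 21159 genes. All 9 were found, and all 9 passed the filter on low counts that left 11196 genes for testing. The 9 libraries of 3' messenger RNA tags form 3 groups of 3, which the labels name as independent biological replicates. Runx2ko cells had the genotype Runx2fl/fl CreErt2tg/+, were transformed with a retrovirus for the leukaemia fusion protein KMT2A-MLLT1 (MLL-ENL) and eGFP, and were given 400 nM 4-hydroxytamoxifen (4-OHT) over 24 hours. Runx2wt cells had the same genotype and retrovirus and were given ethanol. BM progenitor cells were untreated marrow cells of that genotype, with RNA taken ahead of the first replating. All groups thus carry the floxed Runx2 allele and the tamoxifen-inducible Cre, and all came from lineage-depleted marrow grown with IL-3, IL-6 and stem cell factor and then plated in methylcellulose at intervals of 7 days. The transformed cells were taken from suspension culture after the second replating. The labels do not settle whether BM progenitor cells held the fusion, and the sources used here give neither the age of the mice nor the promoter that drives Cre.

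Monocytes leave the bone marrow and can become macrophages, and both cell types depend on the receptor CSF1R, which binds the growth factors CSF1 and IL-34. The transcription factors PU.1 and KLF4 act in monocyte formation, and RUNX factors also act on myeloid genes. Monocytes carry LY6C and CD14 at the surface, and macrophages add scavenger and phagocytic receptors and a large lysosome compartment. KMT2A-fusion leukaemia cells grown in culture are often of a myelomonocytic type.

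The libraries held 3118594 to 5348177 counts each, in 14377 to 15634 genes. Levels are given as CPM, counts scaled to the library total with TMM factors. Runx2ko replicate 1 stood apart: across genes, the correlation of its log2 CPM with each of the other 8 libraries was 0.777 to 0.831. Main results are therefore also given without this library. Runx2 itself had 21.0, 120.1 and 134.7 CPM in Runx2ko replicates 1 to 3, 159.4, 178.8 and 131.0 CPM in the Runx2wt libraries and 53.3, 46.7 and 58.8 CPM in the BM progenitor libraries. Its log2 fold change was -0.76 for Runx2ko against Runx2wt (SE 0.51, edgeR adjusted p = 0.725), and without Runx2ko replicate 1 it was -0.30 (edgeR adjusted p = 0.741). No label says which exon is floxed, so the 3' tags are no check of the deletion, and Runx2ko stands for the libraries so labelled. Treatment with 4-OHT and Cre activity go with Runx2ko, and culture form and passage differ between transformed and BM progenitor cells, so their parts cannot be told apart from those of Runx2 or of the fusion. One protocol label speaks of T-ALL cells. The summed CPM of the 7 T cell genes was 24.3, 31.0 and 9.76 for Runx2ko replicates 1 to 3. For Runx2wt it was 9.78, 8.31 and 10.6, and for BM progenitor 6.2, 10.3 and 7.43. Cd3e and Cd3g were at 0 in every Runx2wt library, whereas Cd3d was above 0 in each. Cd3g was also at 0 in every BM progenitor library. Runx2ko replicate 2 held Cd3d at 4.76 CPM and Cd4 at 1.90 CPM. Lck, the only T cell gene tested, gave the largest part of the sum in every library. edgeR called it higher in Runx2ko than in BM progenitor (log2 fold change 1.76), and did not call it in Runx2wt (0.62).

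Promoter sequences are shown for the members in which a RUNX motif was found (Ly6c2 and Lyz2), for the member with the most PU.1 matches (Mrc1) and for the member with the lowest log2 fold change against BM progenitor (Klf4). They are RefSeq sequences of build GRCm38.p6, from 250 bases before to 50 bases after the start of the gene, read 5′ to 3′ on the strand of the gene. The table of promoters held 6 of the 9 members; Csf1r, Cd14 and Adgre1 were not among them. Capitals mark matches to a RUNX core, TGTGGT or on the other strand ACCACA, and to a PU.1 core, GAGGAA or on the other strand TTCCTC. The windows shown are chr15:75111922-75112221 (minus strand) for Ly6c2, chr10:117282223-117282522 (minus strand) for Lyz2, chr2:14229164-14229463 (plus strand) for Mrc1 and chr4:55532426-55532725 (minus strand) for Klf4.
Ly6c2: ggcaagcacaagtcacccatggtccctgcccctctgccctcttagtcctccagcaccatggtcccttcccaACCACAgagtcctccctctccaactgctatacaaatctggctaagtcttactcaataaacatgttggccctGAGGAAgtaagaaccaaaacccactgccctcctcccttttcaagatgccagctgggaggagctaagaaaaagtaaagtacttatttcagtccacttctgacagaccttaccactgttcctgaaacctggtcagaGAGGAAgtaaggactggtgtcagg
Lyz2: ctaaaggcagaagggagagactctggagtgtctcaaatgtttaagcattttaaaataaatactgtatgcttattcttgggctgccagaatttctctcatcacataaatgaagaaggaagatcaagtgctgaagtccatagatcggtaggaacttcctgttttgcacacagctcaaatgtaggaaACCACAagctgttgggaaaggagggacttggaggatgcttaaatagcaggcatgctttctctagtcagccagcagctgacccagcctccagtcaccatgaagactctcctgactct
Mrc1: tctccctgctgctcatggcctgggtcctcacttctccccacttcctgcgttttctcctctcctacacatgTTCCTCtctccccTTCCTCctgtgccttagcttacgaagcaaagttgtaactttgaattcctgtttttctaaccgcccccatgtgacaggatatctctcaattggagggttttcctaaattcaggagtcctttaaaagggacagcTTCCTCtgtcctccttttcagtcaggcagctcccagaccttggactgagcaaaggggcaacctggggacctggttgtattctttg
Klf4: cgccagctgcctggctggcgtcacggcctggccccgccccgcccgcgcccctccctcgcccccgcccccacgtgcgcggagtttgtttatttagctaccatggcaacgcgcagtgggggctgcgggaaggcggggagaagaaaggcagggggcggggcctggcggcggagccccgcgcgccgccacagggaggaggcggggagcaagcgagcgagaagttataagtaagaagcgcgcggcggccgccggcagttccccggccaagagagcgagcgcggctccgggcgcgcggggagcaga
Of the 6 promoters, 2 held the RUNX core and 4 held the PU.1 core, against 16.8% and 28.3% of all 32851 promoters of that length. With the start base counted as 0, the RUNX match began at -66 in Lyz2 and at -179 in Ly6c2. Ly6c2 also held PU.1 matches at -108 and 26, and Mrc1 held them at -180, -167 and -35. Fcgr1 had a PU.1 match at -55 and Cd68 had matches at -225 and 29. The Klf4 window held neither motif. The second RefSeq start of Ly6c2 gave the same matches in a shifted window.

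Csf1r (ENSMUSG00000024621, chromosome 18, 61100598 to 61132149, plus strand; GRCm38, as for all positions) encodes the CSF1 receptor. It had 9.7, 116.1 and 219.5 CPM in Runx2ko replicates 1 to 3, 88.4, 139.4 and 321.9 CPM in the Runx2wt libraries and 173.2, 151.9 and 147.4 CPM in the BM progenitor libraries. The Runx2wt and BM progenitor libraries overlapped, whereas Runx2ko replicate 1 lay below every other library. In bulk RNA, fewer cells of a type and less RNA per cell cannot be told apart. Neither transformed group differed from BM progenitor past the threshold of 0.05: the log2 fold change was 0.22 ± 0.80 for Runx2wt (SE; edgeR adjusted p = 0.879) and -0.45 ± 0.80 for Runx2ko (SE; edgeR adjusted p = 0.734). With Runx2ko replicate 1 left out the Runx2ko value was 0.08 (edgeR adjusted p = 0.9).

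Cd14 (ENSMUSG00000051439, chromosome 18, 36725067 to 36726798, minus strand) encodes a co-receptor that hands lipopolysaccharide to TLR4. It had 3.23, 60.1 and 134.4 CPM in Runx2ko replicates 1 to 3, 53.4, 90.3 and 175.3 CPM in the Runx2wt libraries and 25.0, 18.3 and 36.3 CPM in the BM progenitor libraries. Every Runx2wt library lay above every BM progenitor library, as did Runx2ko replicates 2 and 3, while Runx2ko replicate 1 was the lowest of all 9. Between Runx2wt and BM progenitor the log2 fold change of 2.00 (SE 0.91) did not pass with all 9 libraries (edgeR adjusted p = 0.164). Leaving out Runx2ko replicate 1, which is in neither of those groups but shares the estimate of the spread, it was 1.99 (SE 0.44) and passed (edgeR adjusted p = 0.00666). Runx2ko against BM progenitor went the same way, with 1.31 (SE 0.89, edgeR adjusted p = 0.337) and, without that library, 1.86 (edgeR adjusted p = 0.0134).

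Fcgr1 (ENSMUSG00000015947, chromosome 3, 96282909 to 96293969, minus strand) encodes the high-affinity IgG receptor CD64. It had 24.3, 14.5 and 6.5 CPM in Runx2ko replicates 1 to 3, 0.941, 5.54 and 18.9 CPM in the Runx2wt libraries and 5.66, 1.62 and 4.04 CPM in the BM progenitor libraries. Its order differed from that of Csf1r and Cd14: Runx2ko replicate 1 was the highest of the 9 libraries, and all 3 Runx2ko libraries lay above all 3 BM progenitor libraries. Among Runx2wt libraries the highest was 20.1 times the lowest. Against BM progenitor the log2 fold change was 1.12 (SE 0.90, edgeR adjusted p = 0.423) for Runx2wt and 1.96 (SE 0.91, edgeR adjusted p = 0.162) for Runx2ko, and neither passed. For Runx2ko without its replicate 1 it was 1.45 (edgeR adjusted p = 0.232).

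Adgre1 (ENSMUSG00000004730, chromosome 17, 57358691 to 57483527, plus strand) encodes F4/80, an adhesion receptor used to mark mouse macrophages. It rose in both transformed groups. It had 51.8, 63.4 and 90.3 CPM in Runx2ko replicates 1 to 3, 110.6, 108.9 and 71.2 CPM in the Runx2wt libraries and 31.8, 29.4 and 32.7 CPM in the BM progenitor libraries. All 6 transformed libraries, Runx2ko replicate 1 included, lay above all 3 BM progenitor libraries. The mean was 96.9 ± 22.3 CPM in the Runx2wt libraries and 31.3 ± 1.7 CPM in the BM progenitor libraries (means ± SD of 3 libraries), and the log2 fold change was 1.63 ± 0.25 (SE; edgeR adjusted p = 0.00604). The Runx2wt call held under all 14 alternative settings, with adjusted p from 2.08e-06 to 0.0489. In Runx2ko the mean was 68.5 ± 19.7 CPM (SD of 3 libraries), and the log2 fold change against BM progenitor was 1.13 (SE 0.25, edgeR adjusted p = 0.018). The Runx2ko call was lost without BM progenitor replicate 1, 2 or 3 (edgeR adjusted p = 0.0682, 0.0802 and 0.0743).

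Mrc1 (ENSMUSG00000026712, chromosome 2, 14229392 to 14332057, plus strand) encodes the mannose receptor CD206, an endocytic receptor of macrophages. It rose in Runx2wt. It had 8.73, 28.2 and 33.3 CPM in Runx2ko replicates 1 to 3, 59.8, 29.7 and 65.1 CPM in the Runx2wt libraries and 9.31, 17.0 and 13.8 CPM in the BM progenitor libraries. The Runx2wt libraries did not overlap with BM progenitor, and Runx2ko replicates 2 and 3 lay above BM progenitor while Runx2ko replicate 1 lay just below it. Its log2 fold change was 1.95 for Runx2wt against BM progenitor (SE 0.49, edgeR adjusted p = 0.0323). It did not pass when BM progenitor replicate 1, 2 or 3 was left out (edgeR adjusted p = 0.116, 0.0882 and 0.118), nor when Runx2wt replicate 1, 2 or 3 was (edgeR adjusted p = 0.0834, 0.0502 and 0.0862). For Runx2ko against BM progenitor it was 0.82 (SE 0.48, edgeR adjusted p = 0.263), and without Runx2ko replicate 1 it was 1.21 and passed (edgeR adjusted p = 0.0228).

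Ly6c2 (ENSMUSG00000022584, chromosome 15, 75108158 to 75111970, minus strand) encodes the surface antigen LY6C2 of classical monocytes. It had 199.3, 1419.7 and 3552.3 CPM in Runx2ko replicates 1 to 3, 2496.2, 2620.4 and 1202.1 CPM in the Runx2wt libraries and 1712.3, 1049.9 and 1553.2 CPM in the BM progenitor libraries. Apart from Runx2ko replicate 1, the groups overlapped throughout. On the log2 scale Runx2wt differed from BM progenitor by 0.55 ± 0.75 (SE; edgeR adjusted p = 0.648) and Runx2ko by 0.26 ± 0.75 (SE; edgeR adjusted p = 0.839), and neither passed. The Runx2ko value was 0.78 when its replicate 1 was left out (edgeR adjusted p = 0.152). Its neighbour Ly6c1 is a near-identical gene: 29.9% of the 50-base windows in the last 300 bases of the Ly6c2 transcript are also in Ly6c1, so reads may be split between the pair. Ly6c1 was at 0.323 to 2.17 CPM in the 9 libraries.

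Lyz2 (ENSMUSG00000069516, chromosome 10, 117277331 to 117282321, minus strand) encodes lysozyme M, a granule enzyme of monocytes, macrophages and neutrophils. It had 253.9, 3416.8 and 6921.9 CPM in Runx2ko replicates 1 to 3, 3743.1, 5172.0 and 10728.3 CPM in the Runx2wt libraries and 3800.8, 2703.7 and 3546.8 CPM in the BM progenitor libraries. Runx2wt replicate 3 was the highest library, and Runx2ko replicates 2 and 3 lay within the range of the other groups, while Runx2ko replicate 1 was below all of them. Its log2 fold change was 0.97 (SE 0.84, edgeR adjusted p = 0.456) for Runx2wt against BM progenitor and 0.08 (SE 0.83, edgeR adjusted p = 0.961) for Runx2ko against BM progenitor. With only the 6 compared libraries in the fit, Lyz2 rose in Runx2wt (edgeR adjusted p = 0.0453). The Runx2ko value was 0.62 without Runx2ko replicate 1 (edgeR adjusted p = 0.262). Lyz1 shares 21.9% of the last windows of Lyz2 and was at 0 to 5.84 CPM.

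Cd68 (ENSMUSG00000018774, chromosome 11, 69664213 to 69666153, minus strand) encodes macrosialin, a glycoprotein of the lysosome membrane in macrophages. It had 40.8, 84.3 and 155.8 CPM in Runx2ko replicates 1 to 3, 111.6, 56.0 and 186.1 CPM in the Runx2wt libraries and 55.8, 48.0 and 75.6 CPM in the BM progenitor libraries. Runx2wt replicate 2 lay within the range of BM progenitor, so the groups overlapped. Fold changes against BM progenitor, on the log2 scale, were 0.98 ± 0.51 for Runx2wt (SE; edgeR adjusted p = 0.216) and 0.65 ± 0.51 for Runx2ko (SE; edgeR adjusted p = 0.408), and 1.00 for Runx2ko without its replicate 1 (edgeR adjusted p = 0.0905).

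Klf4 (ENSMUSG00000003032, chromosome 4, 55527143 to 55532466, minus strand) encodes a zinc-finger transcription factor that acts in monocyte differentiation, and it was the member that went the other way: it fell in Runx2ko. It had 0.647, 2.28 and 8.67 CPM in Runx2ko replicates 1 to 3, 6.21, 1.39 and 21.1 CPM in the Runx2wt libraries and 52.7, 55.0 and 69.0 CPM in the BM progenitor libraries. All 6 transformed libraries lay below all 3 BM progenitor libraries, and the value of Runx2ko replicate 1 rests on 2 counts. For Runx2ko against BM progenitor the log2 fold change was -3.92 (SE 0.92, edgeR adjusted p = 0.0216). It remained past the threshold without Runx2ko replicate 1 (-3.49, edgeR adjusted p = 0.00799), and was lost without BM progenitor replicates 1, 2 or 3 (edgeR adjusted p = 0.0644, 0.0704 and 0.0782) and without Runx2ko replicate 2 (edgeR adjusted p = 0.058). For Runx2wt against BM progenitor it was -2.63 (SE 0.84) and did not pass (edgeR adjusted p = 0.067). Fitted without Runx2ko replicate 1, Klf4 did fall in Runx2wt (-2.64, edgeR adjusted p = 0.0102), as it did in DESeq2 (adjusted p = 0.0116). It also passed without Runx2ko replicate 3 (edgeR adjusted p = 0.0399) and without Runx2wt replicate 3 (edgeR adjusted p = 0.0393). With no filter on low counts, with a replicate block and with only the 6 compared libraries it passed as well. In 7 of the 14 alternatives it stayed uncalled, and its adjusted p over all alternatives ran from 0.00634 to 0.178.

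**Figure D1:**
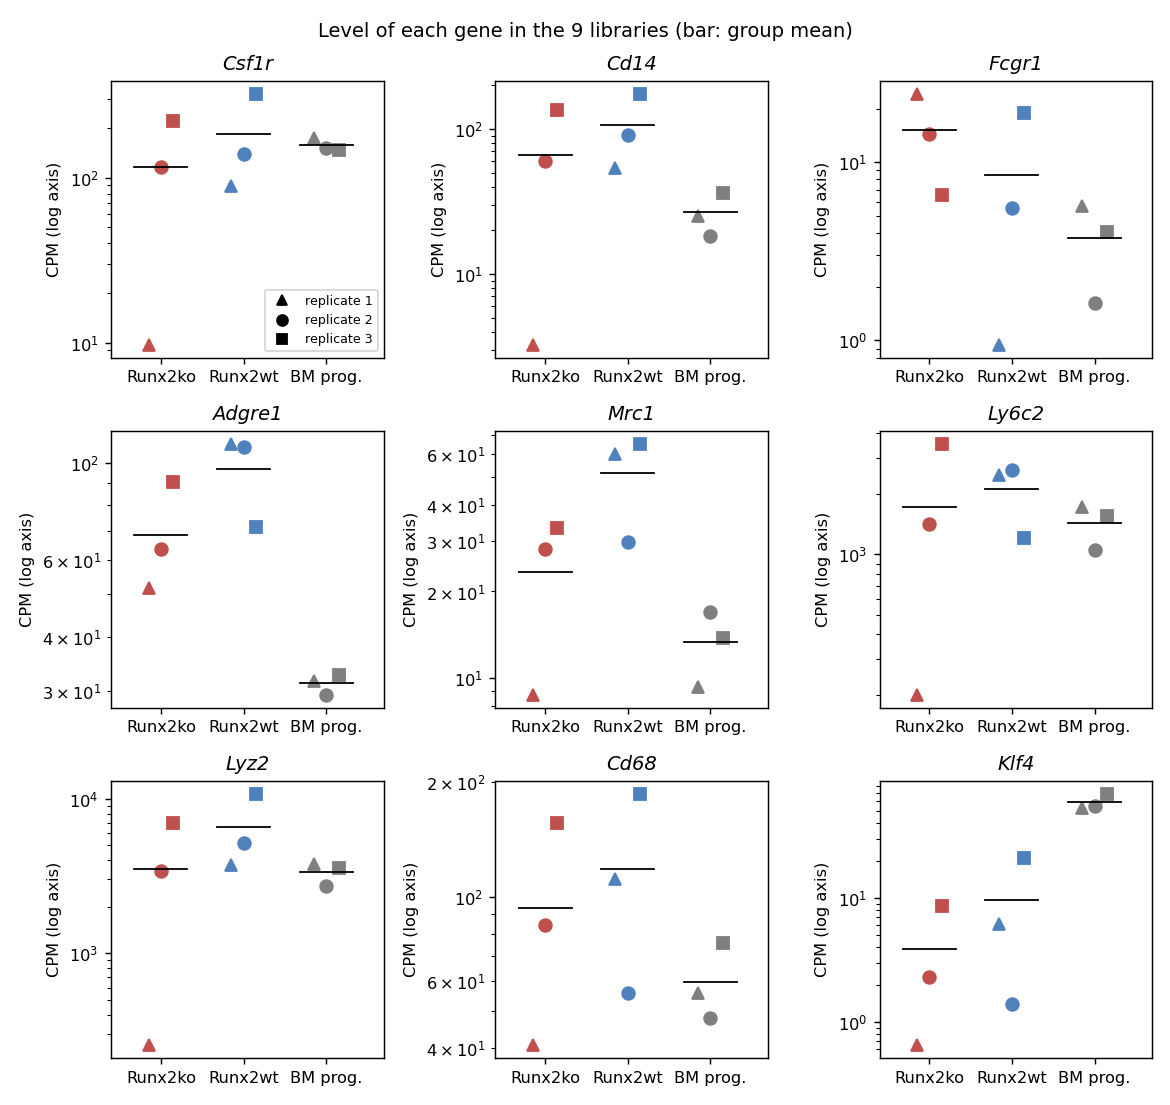
Level of each of the 9 genes in CPM (log axis, a range of its own in each panel) in Runx2ko, Runx2wt and BM progenitor libraries; symbols give the replicate and bars the group mean. Runx2ko replicate 1 (red triangle) is the lowest library for 7 of 9 genes, Adgre1 lies above BM progenitor in all 6 transformed libraries, and Klf4 lies below it in all 6.

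Over the set, in Runx2wt against BM progenitor 2 of the 9 members rose (Adgre1 and Mrc1) and none fell, where 13.5% of all tested genes were called (8.28% higher and 5.23% lower), so that a count of 2 stands near the background. DESeq2 called 3 members, where it called 16.0% of genes. For 4 members (Cd14, Adgre1, Mrc1 and Klf4) the groups did not overlap, which 49.3% of all tested genes also showed. Of the 9, 8 had a log2 fold change above 0, with a median of 0.98, beside 0.01 over all tested genes. When Runx2ko replicate 1 was left out, Cd14, Adgre1 and Mrc1 were called higher and Klf4 lower, 4 of 9, where 28.0% of genes were called (15.9% higher and 12.1% lower).

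In Runx2ko against BM progenitor Adgre1 rose and Klf4 fell, 2 of 9, where 17.2% of all tested genes were called (10.0% higher and 7.14% lower). Fcgr1, Adgre1 and Klf4, 3 members, had groups that did not overlap, against 38.4% of tested genes. The median log2 fold change was 0.65, beside 0.07 over all tested genes. In the fit lacking Runx2ko replicate 1 the 4 members called in Runx2wt were called here too, where 28.5% of genes were called (15.9% higher and 12.6% lower), and the median was 1.00, beside -0.00. The 2 comparisons share the BM progenitor libraries, so they are not separate evidence.

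Runx2ko against Runx2wt is the comparison that bears on 4-OHT treatment and the deletion of Runx2 in transformed cells. None of the 9 passed in edgeR or in DESeq2, nor in edgeR when Runx2ko replicate 1 was left out. Of all tested genes edgeR called 0.0% (0 genes, with 886, or 7.91%, at an unadjusted p under 0.05), DESeq2 called 48 (0.362%), and edgeR called 5 (0.043%) when Runx2ko replicate 1 was left out. The groups overlapped for every member, where 9.68% of genes had groups that did not. Mrc1 had the lowest unadjusted p of the members, 0.0388, at a log2 fold change that was -1.13 ± 0.47 (SE; edgeR adjusted p = 0.604). Against Runx2wt, the log2 fold change was -0.67 for Csf1r (SE 0.80), -0.68 for Cd14 (SE 0.87), -0.50 for Adgre1 (SE 0.24) and -0.89 for Lyz2 (SE 0.84). It was -0.29 for Ly6c2 (SE 0.75), -0.33 for Cd68 (SE 0.50), -1.29 for Klf4 (SE 0.90) and 0.85 for Fcgr1 (SE 0.87). Over the 8 libraries that leave out Runx2ko replicate 1 these values were -0.13 for Csf1r, -0.13 for Cd14, -0.34 for Adgre1, -0.34 for Lyz2 and -0.75 for Mrc1. In that fit they were 0.24 for Ly6c2, 0.02 for Cd68, -0.85 for Klf4 and 0.36 for Fcgr1. Over the 9 members the median was -0.67, beside 0.01 over all tested genes, and without Runx2ko replicate 1 it was -0.13, beside -0.01. A p that misses the threshold does not show that the levels are alike, and the SE of 6 of the members here is 0.745 or more on the log2 scale.

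**Figure D2:**
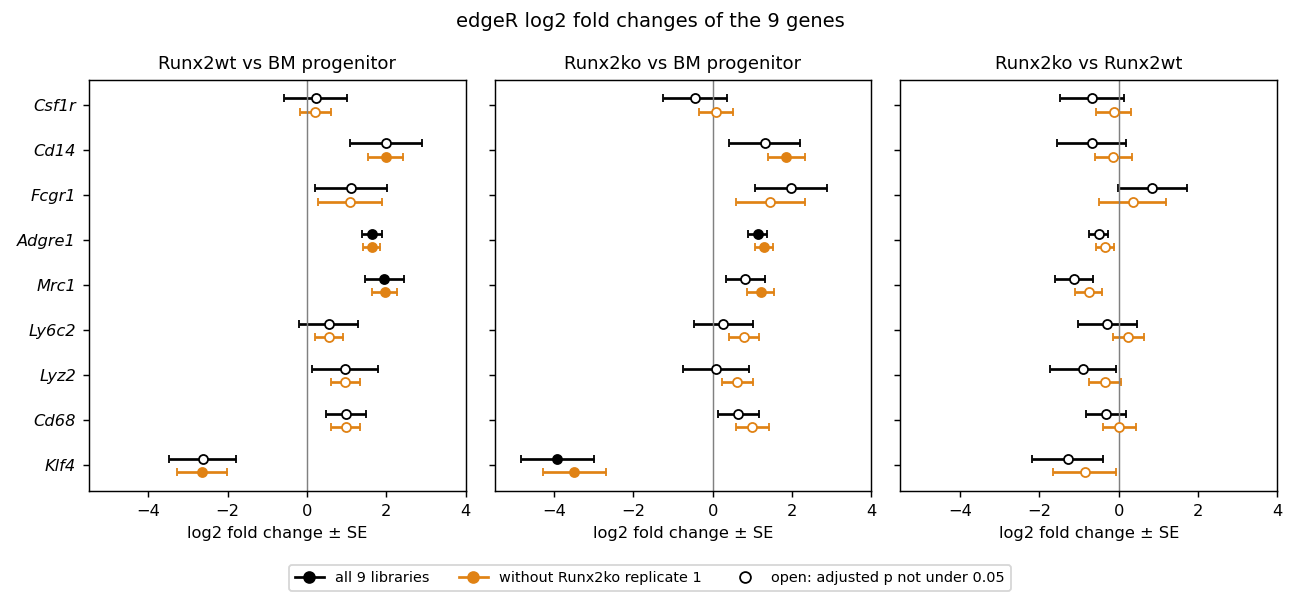
edgeR log2 fold changes of the 9 genes with their SE in the 3 comparisons, with all 9 libraries (black) and without Runx2ko replicate 1 (orange); filled points passed an adjusted p of 0.05. Adgre1 is filled in both comparisons with BM progenitor and under both settings, and no point is filled in Runx2ko against Runx2wt.

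Runx2ko replicate 1 held the lowest level of all 9 libraries for 7 of the 9 members, where it was the lowest for 19.3% of all tested genes, and the highest for Fcgr1, where it was the highest for 22.1%. The mean of Runx2ko replicates 2 and 3 was 30.1 times its level for Cd14, 20.4 times for Lyz2, 17.3 times for Csf1r and 12.5 times for Ly6c2. For Mrc1 it was 3.52 times, for Cd68 2.95 times, for Adgre1 1.48 times and for Fcgr1 0.432 times. No ratio is given for Klf4, which had 2 counts there. Adgre1 thus kept close to the other Runx2ko libraries where Cd14, Lyz2, Csf1r and Ly6c2 did not. Among the other monocyte and macrophage genes tested, this library was the lowest for 44 of 80 and the highest for 5 of 80.

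Markers of other cell types moved with this library. The 9 mast cell and basophil genes summed to 3896.4, 43.8 and 474.6 CPM in Runx2ko replicates 1 to 3, 71.7, 148.3 and 308.3 CPM in the Runx2wt libraries and 1173.7, 1028.6 and 1151.5 CPM in the BM progenitor libraries, and 5 of the 9 were highest of all libraries in Runx2ko replicate 1. Cpa3, a mast cell carboxypeptidase, was at 2001.9, 11.0 and 175.1 CPM in Runx2ko, 10.5, 59.3 and 113.0 CPM in the Runx2wt libraries and 94.2, 63.9 and 69.7 CPM in the BM progenitor libraries. Not every gene of the list was so high in Runx2ko replicate 1. Mcpt8 (306.6 CPM), Hdc (129.7 CPM) and Prss34 (171.8 CPM) lay below every BM progenitor library there, though above every other transformed library. In BM progenitor they were at 344.7 to 412.2, 224.4 to 247.9 and 176.1 to 233.0 CPM. The 7 erythroid and megakaryocyte genes summed to 786.0, 24.4 and 25.2 CPM in Runx2ko, 7.34, 25.5 and 38.7 CPM in the Runx2wt libraries and 78.6, 81.2 and 74.8 CPM in the BM progenitor libraries. Of this sum, Itga2b, the platelet integrin subunit CD41, gave 688.3 CPM in Runx2ko replicate 1. The part of these cells in the low monocyte genes of that library was not tested.

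Marker sums of other cell types also stood at different levels in transformed and BM progenitor libraries. Neutrophils also express Lyz2, and the 9 neutrophil genes summed to 580.6, 3547.6 and 6133.0 CPM in Runx2ko, 693.0, 2471.6 and 793.5 CPM in the Runx2wt libraries and 10789.7, 9509.8 and 7621.3 CPM in the BM progenitor libraries. Not all of them were lower in transformed cells: Ly6g had 171.4, 35.2 and 33.3 CPM in Runx2ko, 5.83, 42.7 and 12.0 CPM in Runx2wt and 1.28, 0.54 and 2.34 CPM in BM progenitor. Of the 9 neutrophil genes edgeR called 1 higher and 3 lower in each transformed group against BM progenitor. Beside this and the stem and progenitor counts that follow, 8.28% of all tested genes were called higher and 5.23% lower in Runx2wt. In Runx2ko the shares were 10.0% and 7.14%. Eosinophil genes summed to 17.8, 8.37 and 9.76 CPM in Runx2ko, 4.14, 2.49 and 3.62 CPM in the Runx2wt libraries and 1768.5, 1804.9 and 1352.5 CPM in the BM progenitor libraries, with Epx, Ear1, Ear2 and Ccr3 at 0 in every Runx2wt library. Dendritic cell genes summed to 14.1 to 43.6 CPM in Runx2ko, 27.4 to 40.6 CPM in Runx2wt and 118.8 to 161.4 CPM in BM progenitor. H2-Ab1 gave 69.0, 80.4 and 81.8 CPM of the BM progenitor sums. Flt3, Siglech, Batf3 and H2-Ab1 were lower in every transformed library than in BM progenitor. Itgax was not, with 12.0, 14.3 and 11.4 CPM in Runx2ko, 28.0, 9.15 and 22.5 CPM in Runx2wt and 8.76, 11.9 and 20.6 CPM in BM progenitor. B cell genes stayed between 2.07 and 13.8 CPM in the 9 libraries. Stem and progenitor genes summed to 682.8, 528.7 and 629.9 CPM in Runx2ko, 701.4, 822.0 and 644.6 CPM in the Runx2wt libraries and 237.6, 236.8 and 230.6 CPM in the BM progenitor libraries. This sum mixes genes that stood at opposite levels: Hoxa9 had 168.8, 340.8 and 357.8 CPM in Runx2ko, 463.0, 516.6 and 434.8 CPM in Runx2wt and 32.3, 29.4 and 47.8 CPM in the BM progenitor libraries, whereas Hlf had 0.324, 0 and 1.08 CPM in Runx2ko, 0.188, 0.554 and 0 CPM in Runx2wt and 23.5, 26.2 and 15.3 CPM in the BM progenitor libraries. Of its 5 tested genes edgeR called 2 higher and 2 lower in Runx2wt, and 2 higher and 1 lower in Runx2ko, against BM progenitor. Hlf passed the filter on low counts only through the BM progenitor libraries, where it was high, so its fits are no test of a fall. The part of these shifts in the members' fold changes was not tested.

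**Figure D3:**
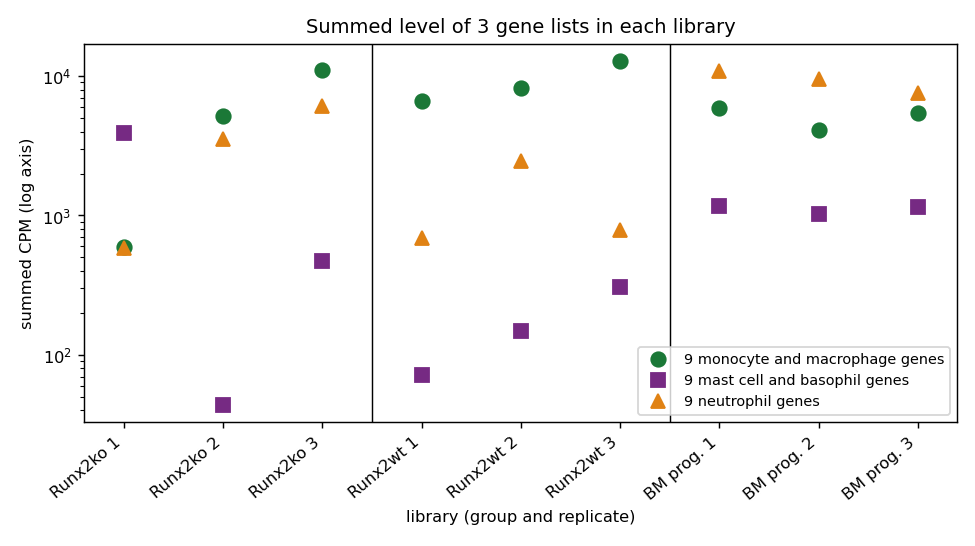
Summed CPM (log axis) of the 9 monocyte and macrophage genes (circles), 9 mast cell and basophil genes (squares) and 9 neutrophil genes (triangles) in each library. In Runx2ko replicate 1 the monocyte and macrophage sum was 592.3 CPM and the mast cell and basophil sum 3896.4 CPM, the only library in which the second was the larger.

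The members varied among themselves within the transformed groups. Runx2wt replicate 3 was the highest of its group for 7 of 9 members, all but Ly6c2 and Adgre1, for which it was the lowest. Runx2ko replicate 3 was the highest of its group for 8 of 9. The ratio of the highest to the lowest Runx2wt library was 3.64 for Csf1r, 3.28 for Cd14, 2.87 for Lyz2 and 3.32 for Cd68, whereas it was 1.55 for Adgre1. Klf4 ranged 15.3-fold within Runx2wt. Within BM progenitor this ratio lay between 1.11 and 3.50 for the 9 members.

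How alike the profiles of genes were was measured as the root mean square difference of log2 CPM over the 9 libraries after each gene's own mean was taken off. Among the members Csf1r and Lyz2 were closest (0.37), followed by Cd14 and Lyz2 (0.55), Mrc1 and Cd68 (0.59) and Adgre1 and Mrc1 (0.66), and Fcgr1 and Klf4 were farthest apart (3.08). Of the 8357 genes with a mean of at least 10 CPM, those most like Csf1r were Galc (0.29), Lyz2 (0.37) and Clec5a (0.38). Those most like Lyz2 were Sirpa (0.34), Lpcat2 (0.35) and Lrp1 (0.36), with Csf1r at rank 4. For Klf4 the closest were Ctsh (0.87), Emp1 (0.87) and AA467197 (0.88). These lists rest largely on Runx2ko replicate 1. Over the other 8 libraries the difference between Csf1r and Lyz2 was much the same (0.39), but other genes came closer and Lyz2 was at rank 128 for Csf1r. The closest genes there were Sertad1, Sqstm1 and Dock1 for Csf1r, Naip2, Plekho2 and Dhrs3 for Lyz2, and Fam129b, Arhgap6 and AA467197 for Klf4.

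**Figure D4:**
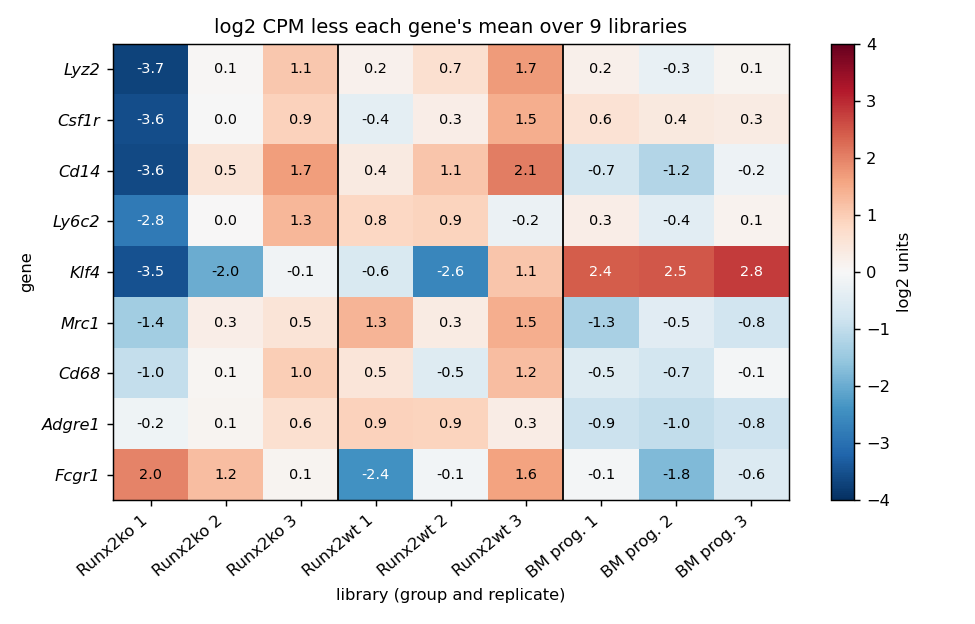
Log2 CPM of each of the 9 genes less its mean over the 9 libraries, by library; red is above and blue below that mean. Csf1r, Lyz2, Cd14, Ly6c2 and Klf4 are dark blue in Runx2ko replicate 1, Fcgr1 is red there, and Klf4 is red in the 3 BM progenitor libraries.

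Of 92 further genes of the same pathways, in 7 lists, 91 were in the table and 80 were tested. In Runx2wt against BM progenitor 10 rose and 8 fell (22.5% of 80, where 13.5% of all tested genes were called), and in Runx2ko against BM progenitor 10 rose and 10 fell (25.0%, where 17.2% were called). Leaving out Runx2ko replicate 1, with 84 tested, gave 23 and 15 in Runx2wt (45.2%, where 28.0% of all genes were called) and 20 and 14 in Runx2ko (40.5%, where 28.5% were called). Without BM progenitor replicates 1, 2 and 3 in turn, 5 rose and 6 fell, 4 rose and 6 fell, and 3 rose and 1 fell in Runx2wt, and in Runx2ko 3 rose and 4 fell, 0 rose and 5 fell, and 0 rose and 3 fell. The same fits called 331, 267 and 209 of all genes in Runx2wt and 498, 435 and 405 in Runx2ko. With only the 6 compared libraries, 24 rose and 19 fell in Runx2wt, and 5 rose and 9 fell in Runx2ko, where 3679 and 1262 of all genes were called. None was called in Runx2ko against Runx2wt by edgeR, with or without Runx2ko replicate 1. The counts for single lists below stand beside these shares of all tested genes. In Runx2wt against BM progenitor 8.28% were called higher and 5.23% lower, and in Runx2ko 10.0% and 7.14%. Without Runx2ko replicate 1 the shares were 15.9% and 12.1% in Runx2wt, and 15.9% and 12.6% in Runx2ko.

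The lysosome and phagosome genes that passed all rose. Of 17 tested, 5 rose (Ctsd, Grn, Hexa, Lamp2 and Laptm5) and none fell in Runx2wt against BM progenitor, with a median log2 fold change of 0.96, beside 0.01 over all genes. Ctsd, the protease cathepsin D, was at 3570.2 ± 1390.1 CPM in the Runx2wt libraries and 828.7 ± 99.8 CPM in the BM progenitor libraries (means ± SD of 3 libraries), and its log2 fold change was 2.11 ± 0.27 (SE; edgeR adjusted p = 0.00332). Grn, the precursor of granulins, rose by 2.05 ± 0.30 on the log2 scale (SE; edgeR adjusted p = 0.00506) and Hexa, a subunit of hexosaminidase, by 1.55 (SE 0.25, edgeR adjusted p = 0.00747). The calls of Ctsd and Grn held under all 14 alternatives (adjusted p up to 0.0344 and 0.045), and that of Hexa was lost without BM progenitor replicate 3 (edgeR adjusted p = 0.0579). Without BM progenitor replicate 3 the count of rises was 3 of 17, and without Runx2ko replicate 1 it was 10 of 17. In Runx2ko against BM progenitor 6 of 17 rose, the same 5 and Cd63, with 1.46 for Ctsd, 1.55 for Grn and 1.08 for Hexa, and the median was 0.20. Without Runx2ko replicate 1 that count was 7 and the median 0.56, beside -0.00 over all genes. Without BM progenitor replicate 1 the count was 3, without BM progenitor replicate 2 or 3 it was 0, and with only the 6 compared libraries it was 3 of 16 tested. Cd63, a lysosome membrane protein that mast cells also release, had 7072.4, 2353.4 and 2601.0 CPM in Runx2ko replicates 1 to 3, 3132.0, 2273.4 and 4739.0 CPM in the Runx2wt libraries and 1517.5, 1460.2 and 1232.2 CPM in the BM progenitor libraries, and it was named after its values were seen. In Runx2ko against Runx2wt no gene of this list was called, 16 of 17 had a log2 fold change below 0 and the median was -0.60, beside 0.01 over all genes. Over the other 8 libraries it was 17 of 17 and -0.36, beside -0.01. Runx2wt replicate 3 was the highest Runx2wt library for every tested gene of the list but Hexa. Ctsd, for example, had 2690.0, 2847.9 and 5172.7 CPM in the Runx2wt libraries and 2154.9, 1910.4 and 2782.6 CPM in Runx2ko. The genes thus vary together between libraries, and their signs are not separate evidence.

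Fc gamma receptor genes held rises as well. Of 8 tested, 2 rose and 1 fell in Runx2wt against BM progenitor. Fcgr4, an activating IgG receptor of mouse monocytes, was at 0.647, 44.0 and 65.0 CPM in Runx2ko, 34.6, 69.3 and 19.8 CPM in the Runx2wt libraries and 4.38, 1.35 and 0.425 CPM in the BM progenitor libraries. Runx2ko replicate 1 lay in the range of BM progenitor, and the other 5 transformed libraries lay above it. Its log2 fold change was 4.25 for Runx2wt (SE 1.22, edgeR adjusted p = 0.0483) and 4.09 for Runx2ko (SE 1.21, edgeR adjusted p = 0.0472) against BM progenitor. Fcer1g, the signalling chain shared by these receptors, rose by 1.41 (edgeR adjusted p = 0.0127) in Runx2wt and 0.90 (edgeR adjusted p = 0.0444) in Runx2ko. The kinase gene Fgr fell by 2.48 in Runx2wt (edgeR adjusted p = 0.0259). Each of these calls was lost without BM progenitor replicate 1, 2 or 3 (edgeR adjusted p = 0.0603 to 0.163). In Runx2wt the call of Fcgr4 and that of Fgr were also lost without each Runx2wt library in turn, and that of Fcgr4 without Runx2ko replicate 2 as well (edgeR adjusted p = 0.0612 to 0.148). That of Fcer1g was lost without Runx2wt replicate 2 (edgeR adjusted p = 0.0502). In Runx2ko the calls of Fcgr4 and Fcer1g were also lost without each Runx2wt library and without Runx2ko replicates 2 or 3 (edgeR adjusted p = 0.0504 to 0.122), and with only the 6 compared libraries (edgeR adjusted p = 0.0969 and 0.0614). Leaving out Runx2ko replicate 1 gave 4 rises and 1 fall in Runx2wt, and 4 rises and no fall in Runx2ko, in this list.

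Among 8 tested CSF1R ligands and signalling partners, 3 rose and none fell in Runx2wt. Csf1, the ligand, was at 94.1, 82.6 and 68.0 CPM in Runx2ko, 72.3, 68.7 and 289.1 CPM in the Runx2wt libraries and 30.5, 23.7 and 32.9 CPM in the BM progenitor libraries. All 6 transformed libraries lay above BM progenitor, and Runx2wt replicate 3 was the highest. The log2 fold change of Csf1 in Runx2wt was 2.30 (SE 0.52, edgeR adjusted p = 0.0231), lost without BM progenitor replicates 1, 2 or 3 (edgeR adjusted p = 0.0853, 0.0996 and 0.0916), and in Runx2ko it was 1.49 without passing (edgeR adjusted p = 0.0733). In Runx2ko Csf1 stayed uncalled in 10 of the 14 alternatives. Those in which it passed included the fit without Runx2wt replicate 3 (edgeR adjusted p = 0.00602) and DESeq2 (adjusted p = 0.021). Tyrobp, the adaptor DAP12, rose by 1.03 in Runx2wt (edgeR adjusted p = 0.0301) and 0.94 in Runx2ko (edgeR adjusted p = 0.0332). Pik3r1, a regulatory subunit of PI3-kinase, rose by 0.80 in Runx2wt (edgeR adjusted p = 0.0443). The Runx2wt calls of both were lost without each compared library in turn (edgeR adjusted p = 0.0551 to 0.183), and that of Pik3r1 also without Runx2ko replicate 2 (edgeR adjusted p = 0.0664). The Runx2ko call of Tyrobp was lost without any BM progenitor library, Runx2wt replicate 1 or Runx2ko replicate 3 (edgeR adjusted p = 0.0566 to 0.121), and with only the 6 compared libraries (edgeR adjusted p = 0.0622). The list again gave 3 rises in Runx2wt and 1 in Runx2ko without Runx2ko replicate 1.

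Transcription factor genes of the lineage that passed all fell: of 14 tested, 2 fell and none rose in each comparison with BM progenitor. Of all genes 5.23% were called lower in Runx2wt and 7.14% in Runx2ko, and 8.28% and 10.0% higher. Without Runx2ko replicate 1 it was 5 falls and no rise in each, where 12.1% and 12.6% of all genes were called lower. In Runx2ko 13 of the 14 had a log2 fold change below 0, with a median of -0.61, and in Runx2wt the median was -0.05, beside 0.07 and 0.01 over all genes. Without Runx2ko replicate 1 the count in Runx2ko was 8 of 14 below 0 and the median -0.21, beside -0.00. Irf5, an interferon regulatory factor of macrophages, was at 26.1 ± 1.46 CPM in Runx2ko, 15.0 ± 5.81 CPM in the Runx2wt libraries and 141.4 ± 19.9 CPM in the BM progenitor libraries (means ± SD of 3 libraries). Its log2 fold change was -2.44 for Runx2ko (SE 0.29) and -3.25 for Runx2wt (SE 0.30) against BM progenitor, and both calls held under all 14 alternatives (adjusted p up to 0.0175 and 0.00856). Egr2, a zinc-finger factor, was at 2.91, 3.62 and 1.36 CPM in Runx2ko, 2.82, 4.43 and 8.62 CPM in the Runx2wt libraries and 13.7, 34.5 and 37.0 CPM in the BM progenitor libraries. Its fall of 3.40 in Runx2ko held under all alternatives, while that of Runx2wt, with a log2 fold change of -2.43, was lost without BM progenitor replicates 2 or 3 and Runx2wt replicates 1 or 2 (edgeR adjusted p = 0.0609 to 0.0926). Spi1, which encodes PU.1, was at 135.2, 321.0 and 379.7 CPM in Runx2ko, 299.2, 379.4 and 319.9 CPM in the Runx2wt libraries and 346.3, 297.5 and 317.3 CPM in the BM progenitor libraries, with log2 fold changes of -0.20 in Runx2ko and 0.05 in Runx2wt against BM progenitor that did not pass (edgeR adjusted p = 0.696 and 0.926); it was chosen after its values were seen.

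Of 11 tested classical and patrolling monocyte genes, none rose and 3 fell in Runx2wt, and 1 rose and 4 fell in Runx2ko (Vcan, Ms4a6c, Ccr2 and Fn1), against BM progenitor. Without Runx2ko replicate 1, with 12 tested, 2 rose and 5 fell in Runx2wt, and 2 rose and 4 fell in Runx2ko. The gene added in that fit was Ms4a4c, 1 of the 5 falls in Runx2wt. It passed the filter on low counts only through BM progenitor replicates 1 and 3, where it was high, so this call is no test of a fall. Vcan, a proteoglycan of classical monocytes, was at 7.11 ± 5.39 CPM in Runx2ko, 7.39 ± 4.46 CPM in the Runx2wt libraries and 72.6 ± 7.77 CPM in the BM progenitor libraries (means ± SD of 3 libraries), with log2 fold changes of -3.30 in Runx2ko (edgeR adjusted p = 0.00864) and -3.32 in Runx2wt (edgeR adjusted p = 0.0106) against BM progenitor. The Runx2wt call was lost without BM progenitor replicate 3 (edgeR adjusted p = 0.0522). Ms4a6c, a membrane protein gene of monocytes, fell by 2.28 in Runx2ko (edgeR adjusted p = 0.0477) and by 4.34 in Runx2wt (edgeR adjusted p = 0.0113). Ms4a6c passed the filter in the main fit only with the BM progenitor libraries, where it was high. Its fit in Runx2wt is thus no test of a fall. Cx3cr1, the fractalkine receptor of patrolling monocytes, fell by 3.23 in Runx2wt (edgeR adjusted p = 0.0373). F13a1, which encodes a coagulation factor subunit made by monocytes, rose by 2.25 in Runx2ko (edgeR adjusted p = 0.0162). The F13a1 call was lost without each BM progenitor library (edgeR adjusted p = 0.0555, 0.0759 and 0.0766), that of Cx3cr1 without each compared library (edgeR adjusted p = 0.0834 to 0.119) and that of Ms4a6c in Runx2wt without BM progenitor replicate 3 or Runx2wt replicate 2 (edgeR adjusted p = 0.0546 and 0.0563). In Runx2ko the Ms4a6c call was lost without any BM progenitor or Runx2wt library and without Runx2ko replicate 2 (edgeR adjusted p = 0.0647 to 0.138), and with only the 6 compared libraries (edgeR adjusted p = 0.0989).

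Ccr2, the chemokine receptor of classical monocytes, was chosen after its values were seen, as the 1 gene of the 92 that DESeq2 called in Runx2ko against Runx2wt. It had 13.3, 29.9 and 42.3 CPM in Runx2ko, 117.2, 112.2 and 81.5 CPM in the Runx2wt libraries and 91.8, 78.8 and 117.0 CPM in the BM progenitor libraries. All Runx2ko libraries lay below all Runx2wt and all BM progenitor libraries. The DESeq2 log2 fold change of Runx2ko against Runx2wt was -1.86 (adjusted p = 0.00178). In edgeR it was -1.86 (SE 0.37) and did not pass (adjusted p = 0.511), nor without Runx2ko replicate 1 (-1.53, edgeR adjusted p = 0.102). Against BM progenitor it fell by 1.75 in Runx2ko (edgeR adjusted p = 0.0155), a call lost without BM progenitor replicate 1 (edgeR adjusted p = 0.0535) or 3 (edgeR adjusted p = 0.0674).

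Of 11 tested macrophage surface, scavenger and complement genes, none rose and 1 fell in Runx2wt, and none rose and 3 fell in Runx2ko, against BM progenitor. Adgre4, an adhesion receptor of the family of Adgre1, had 0 counts in the 3 Runx2wt libraries and 130 counts in BM progenitor, at least 39.0-fold lower against a floor of 3 counts over the group. In Runx2ko it had 2 counts, and the ratio of BM progenitor to Runx2ko was 56.3, with a 95% counting interval of 15.3 to 470.0. The edgeR adjusted p was 0.0102 in Runx2wt and 0.013 in Runx2ko, and without BM progenitor replicate 3 it was 0.0546 and 0.0598, and in Runx2ko it was 0.0573 and 0.0546 without BM progenitor replicates 1 and 2. Adgre4, the 1 fall in Runx2wt and 1 of the 3 in Runx2ko, passed the filter on low counts only through the BM progenitor libraries, where it was high. Its fits are thus no test of a fall. Clec7a, the beta-glucan receptor dectin-1, fell by 3.31 in Runx2ko (edgeR adjusted p = 0.0167) and Msr1, a scavenger receptor, fell by 2.60 (edgeR adjusted p = 0.0233). Both were lost without BM progenitor replicates 2 or 3, and Msr1 also without BM progenitor replicate 1 or Runx2ko replicate 3 (edgeR adjusted p = 0.0586 to 0.0812). Over the 8 libraries without Runx2ko replicate 1, with 14 tested, 2 rose and 3 fell in Runx2wt and 3 rose and 4 fell in Runx2ko. The rises in Runx2ko included C1qa and Cd5l, which passed the filter only through Runx2ko replicates 2 and 3, where they were high.

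Of 11 tested CD14 and Toll-like receptor partners, none rose and 1 fell against BM progenitor in each transformed group, and without Runx2ko replicate 1 it was 2 and 1 in Runx2wt and 3 and 1 in Runx2ko. That gene, Ly86, encodes MD-1, the partner of the receptor CD180, and had 2 counts in Runx2ko, 1 count in Runx2wt and 68 counts in BM progenitor. The ratio of BM progenitor to Runx2ko was 29.4 (95% counting interval 7.85 to 248.0) and that of BM progenitor to Runx2wt was 61.3 (95% counting interval 10.6 to 2450.0). The edgeR adjusted p was 0.0124 in Runx2ko and 0.0107 in Runx2wt, and both calls were lost without BM progenitor replicate 3 (edgeR adjusted p = 0.0595 and 0.0573). The call was also lost without BM progenitor replicate 1 in Runx2ko and without Runx2wt replicate 2 in Runx2wt (edgeR adjusted p = 0.0535 and 0.0502). Ly86 passed the filter on low counts only through the BM progenitor libraries, where it was high. These calls are thus no test of a fall. Tlr4, the signalling receptor served by CD14, had log2 fold changes of 1.11 in Runx2ko and 1.45 in Runx2wt that did not pass (edgeR adjusted p = 0.152 and 0.0806). They passed without Runx2ko replicate 1 (edgeR adjusted p = 0.00351 and 0.00295), and Tlr4 was chosen after its values were seen.

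**Figure D5:**
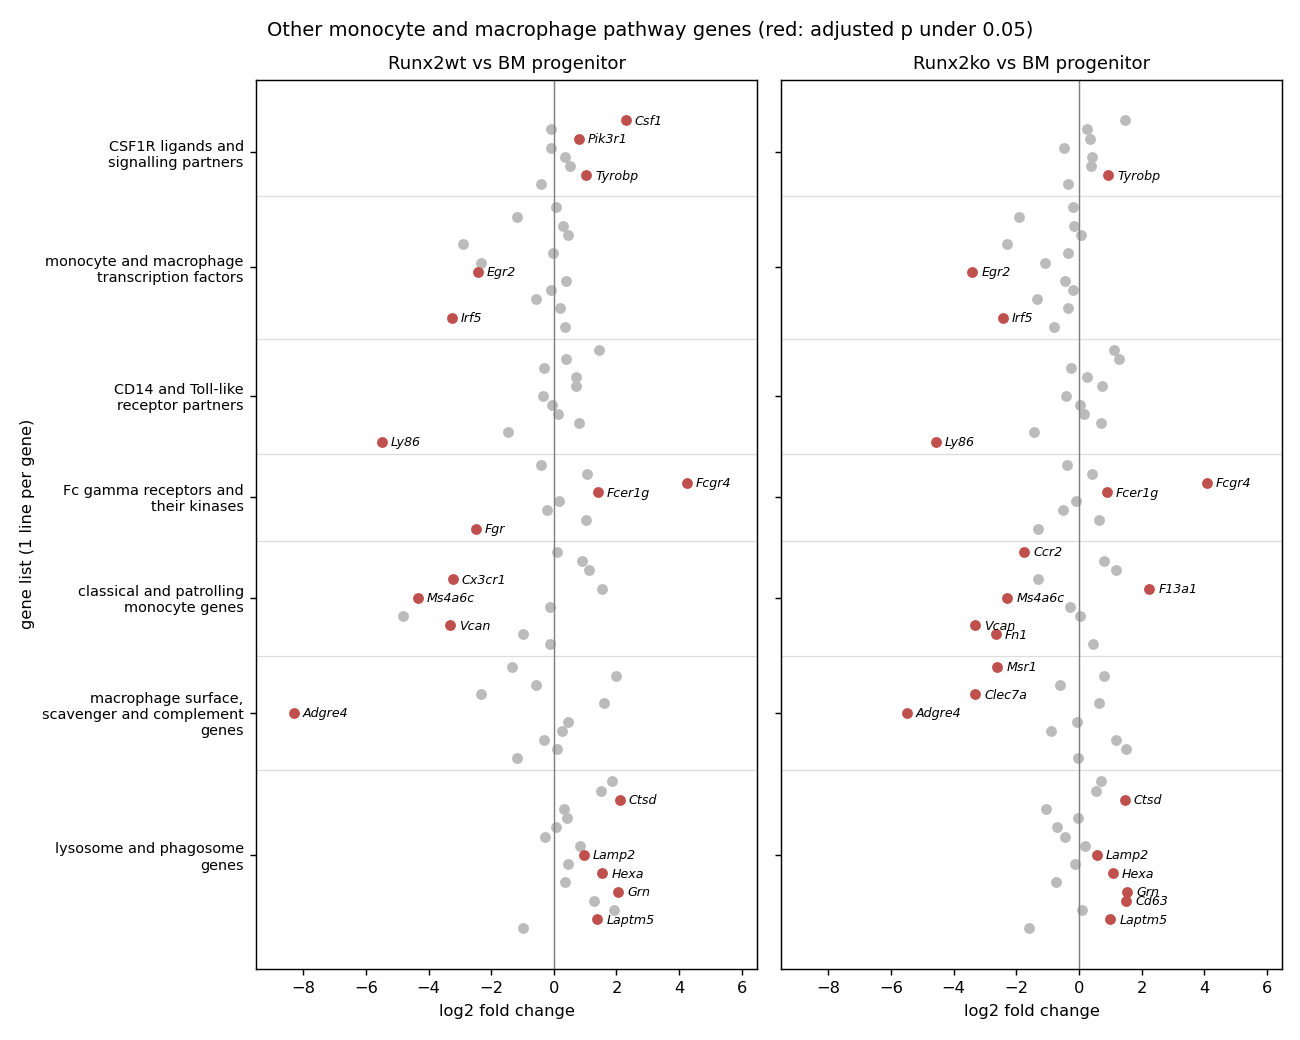
Log2 fold changes (edgeR) of the 80 tested pathway genes in Runx2wt and Runx2ko against BM progenitor, 1 line per gene, grouped by list; red and named genes passed an adjusted p of 0.05, grey ones did not. Lysosome genes that passed lie to the right of 0, and transcription factor genes that passed lie to the left. Adgre4 and Ly86 had 0 to 2 counts in a transformed group, so their fitted positions are no measure of size.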

How the data were processed

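Messenger RNA 3' ends were sequenced in 9 QuantSeq libraries of mouse bone marrow cells. What the authors deposited and what was used here is a table of raw counts for each Ensembl gene; their normalized table was left out. The submitters' processing notes name FastQC, STAR, DESeq2 and GRCm38, without versions. The sources used here do not say which program counted the reads, with which annotation and whether by strand. GENCODE symbols of GRCm38 matched 21042 of 21159 identifiers, and 1188 genes had no count. Replicates of a group all differed by more than sampling noise (the lowest chi-square per gene was 4.25).

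The deposited counts went into edgeR 4.0.16 (R 4.3.3), which fitted all 9 libraries in 1 model with a shared estimate of the spread, after TMM scaling and the filterByExpr filter on low counts, and the quasi-likelihood test was used. A gene was called at a Benjamini-Hochberg adjusted p under 0.05 over 11196 genes. Standard errors were taken from the F statistic, and log2 CPM had a prior count of 1. Counting intervals and floors cover counting error only. The 14 alternatives were DESeq2 1.42.0, RLE factors, no filter, only the 6 compared libraries, a replicate block, and leaving out each library in turn. Csf1r overlaps Hmgxb3, which had 16 counts in all, and without strand their reads cannot be told apart.

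Genes named are the 9 members, up to 3 called genes with the largest change in each direction from each pathway list, and the 3 genes most like Csf1r, Lyz2 and Klf4. The members, lists and tests were chosen with earlier results of these data known. The labels call the replicates independent without naming animals, so p-values measure the spread between these samples.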

Additional observations from a re-analysis of the deposited data

How the results depend on the processing

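Among the 9 members no fold change of a called gene reversed under any of the 14 alternatives. Only Adgre1 in Runx2wt against BM progenitor was called in every setting. With only the 6 compared libraries, 5 members were called in Runx2wt against BM progenitor. Leaving out 1 library in turn gave 1 to 4 called members in that comparison, 0 to 4 in Runx2ko against BM progenitor and 0 in Runx2ko against Runx2wt. Counts of all called genes moved more. For Runx2wt against BM progenitor it was 3679 with the 6 compared libraries and 209 to 3256 with 1 library left out, beside 1513. For Runx2ko against BM progenitor it was 1262 with the 6 compared libraries and 405 to 3311 with 1 library left out, beside 1924. For Runx2ko against Runx2wt it was 48 with DESeq2 and 0 to 5 with 1 library left out, beside 0. Among the fits that leave out 1 library, the highest counts came without Runx2ko replicate 1 and the lowest without BM progenitor replicate 3 in both comparisons with BM progenitor; the cause was not tested.

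Replicate numbers did not pair the libraries: deviations of libraries with the same number correlated at -0.062 to 0.0696, and not every library correlated best with its own number. With a replicate block 922 genes were called in Runx2wt against BM progenitor, 1120 in Runx2ko against BM progenitor and 0 in Runx2ko against Runx2wt, and the members called were 3, 2 and 0. Among other pathway calls, the block ended those of Fcgr4 in both comparisons with BM progenitor (edgeR adjusted p = 0.097 for Runx2wt and 0.13 for Runx2ko), of Tyrobp in Runx2ko (edgeR adjusted p = 0.0585), and of Pik3r1 and Cx3cr1 in Runx2wt (edgeR adjusted p = 0.086 and 0.0582). In the lysosome and phagosome list 4 of 17 genes were called higher in Runx2ko than in BM progenitor with the block, beside 6 in the main fit. Depth limits Klf4 and Fcgr1 most, since some of their values rest on under 10 counts.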

Other observations

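Genes of tissue-resident macrophages differed among the Runx2ko libraries. The complement genes C1qa, C1qb and C1qc and the scavenger gene Cd5l were chosen after their values were seen. C1qa was at 0.647, 23.2 and 4.07 CPM in Runx2ko replicates 1 to 3, 0.941, 0.277 and 1.67 CPM in the Runx2wt libraries and 1.09, 0.809 and 1.91 CPM in the BM progenitor libraries, and Cd5l at 0.324, 13.3 and 2.98 CPM in Runx2ko, 0.565, 0.277 and 0.556 CPM in the Runx2wt libraries and 0.73, 0.27 and 0 CPM in the BM progenitor libraries. Runx2ko replicate 2 was thus the highest of the 9 libraries for both. C1qb had 0, 16.9 and 7.05 CPM in Runx2ko and C1qc had 1.62, 15.8 and 14.6 CPM, again highest in replicate 2. Runx2ko replicate 3 also lay above both other groups for C1qa, C1qb, C1qc and Cd5l. Without Runx2ko replicate 1 edgeR called C1qc higher in Runx2ko than in BM progenitor (2.00, adjusted p = 0.00518). With all 9 libraries C1qc did not pass (1.51, edgeR adjusted p = 0.159), and C1qa and Cd5l did not pass the filter on low counts. C1qa and Cd5l passed that filter without Runx2ko replicate 1 only through Runx2ko replicates 2 and 3, where they were high. Their fits there are thus no test of a rise. Apoe, an apolipoprotein made by macrophages, was at 5.18, 40.9 and 3.79 CPM in Runx2ko, 9.97, 4.71 and 7.79 CPM in the Runx2wt libraries and 14.8, 19.2 and 17.6 CPM in the BM progenitor libraries. In Runx2ko replicate 2 the levels of Csf1r, Cd14 and Adgre1 lay between those of Runx2ko replicates 1 and 3.

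Chil3, a chitinase-like gene of monocytes and neutrophils, split the transformed libraries in another way. It was at 16.5, 365.2 and 1083.5 CPM in Runx2ko, 0.376, 31.3 and 19.5 CPM in the Runx2wt libraries and 609.5, 411.6 and 400.3 CPM in the BM progenitor libraries. Runx2ko replicate 3 lay above and replicate 2 just below the BM progenitor range, whereas all Runx2wt libraries and Runx2ko replicate 1 were far below it. Without Runx2ko replicate 1 edgeR called Chil3 lower in Runx2wt than in BM progenitor (-4.85, adjusted p = 0.00136), and with all libraries it did not pass (-4.82, edgeR adjusted p = 0.0505; over all alternatives 0.00121 to 0.129). It was also chosen after its values were seen.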
